A study of Mus musculus with 38 samples.

Results

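Pomc, Cartpt, Agrp, Npy, Hcrt, Pmch, Gal, and Nts encode the precursors of neuropeptides that act on feeding and arousal. These 8 genes, taken by symbol, are 8 of the 54165 genes of a count table of bulk RNA-seq, and each has a read count in every library. The table holds the hypothalamus (Hypo) of 18 mice and the prefrontal cortex (PFC) of 20 mice, 38 libraries from 25 mice, of which 13 gave both tissues. The study asked whether a higher Ube3a dosage changes gene expression in these tissues, and whether it does so differently in males and females.

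All mice were adults on the FVB/NJ background with food ad libitum. Ube3a2X mice were homozygous for a Ube3a transgene, and their WT littermates served as controls. Hypo libraries came from 4 WT and 5 Ube3a2X mice of each sex, and PFC libraries from 5 mice of each sex and genotype. The Hypo was taken out of the turned brain with tweezers, and the PFC was taken from coronal sections. Levels are given as CPM, the reads of a gene per M (mega) counted reads of its library. The Hypo libraries held 39.0 to 380.8 M counted reads and the PFC libraries 36.89 to 69.1 M. Ube3a, the gene on the transgene, was higher in Ube3a2X than in WT mice by 1.97 on the log2 scale in the Hypo (SE 0.18, edgeR adjusted p = 0.000598) and by 2.33 in the PFC (SE 0.16, edgeR adjusted p = 1.08e-06).

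In the hypothalamus the arcuate nucleus holds a pair of opposed neuron types. Neurons with Pomc, the precursor of the melanocortin α-MSH, often also hold Cartpt, and they reduce feeding. Neurons with Agrp, a natural antagonist of melanocortin receptors, also hold Npy, and they drive feeding. The lateral hypothalamus holds separate neurons with Hcrt, the precursor of the orexins that keep wakefulness, and with Pmch, the precursor of melanin-concentrating hormone, while galanin (Gal) and neurotensin (Nts) are made in several hypothalamic nuclei. Npy is also made by interneurons of the cortex, and Pomc by cells of the pituitary, which lies below the hypothalamus.

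RefSeq promoters (GRCm38.p6) were found for 7 of the 8 genes, all but Agrp. They were searched on both strands of the 250 bases before the start for 3 motifs. The TATA box TATAAA was in 3 of the 7, beginning at base -25 in Pomc, -33 in Hcrt, and -27 in Pmch, and in 12.4% of 32851 promoters. The core TGACG of the cAMP response element was in 2 of the 7, Cartpt and Nts, and in 17.8% of all. The 250 bases of Cartpt, and so its matches, lie inside the gene as GENCODE draws it, and 68 of the 250 bases of Nts do, but not its match. The STAT motif TTCNNNGAA was in 1 of the 7, Pmch, and in 7.02% of all. Only exact matches were counted. Cartpt, Gal, and Nts had no TATAAA and were also higher in the Hypo. The last 120 bases before the start are shown for the 3 genes with TATAAA, all higher in the Hypo, and for Npy, the one gene that was lower there. Capitals mark TATAAA.
Pomc, chr12:3954825-3954944, plus strand: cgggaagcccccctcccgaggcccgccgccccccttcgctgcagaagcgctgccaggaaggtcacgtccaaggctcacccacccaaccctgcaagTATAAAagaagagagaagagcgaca
Hcrt, chr11:100762932-100763051, minus strand: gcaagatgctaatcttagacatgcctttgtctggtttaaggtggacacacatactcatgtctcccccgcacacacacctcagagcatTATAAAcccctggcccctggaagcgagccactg
Pmch, chr10:88090952-88091071, plus strand: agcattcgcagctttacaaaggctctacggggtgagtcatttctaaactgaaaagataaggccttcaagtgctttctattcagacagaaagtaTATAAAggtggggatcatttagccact
Npy, chr6:49822590-49822709, plus strand: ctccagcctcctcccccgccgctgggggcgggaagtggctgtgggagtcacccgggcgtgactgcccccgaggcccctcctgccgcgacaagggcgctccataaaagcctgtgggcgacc

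The Hypo and the PFC were compared first. Of the 8 genes, 7 were higher in the Hypo than in the PFC and Npy was lower. Each call had an adjusted p of at most 5.01e-09 in edgeR's quasi-likelihood test with RIN as a covariate, over 22282 genes. RIN differed between the tissues, with 8.8 to 9.3 in the Hypo apart from WT male 423 (6.8), and 6.7 to 8.9 in the PFC. Without RIN in the model, 16981 genes were called instead of 14118, with 8 of the 8 peptide genes among them. The tissues differ widely, and 63.4% of all genes tested were called, 32.4% as higher and 31.0% as lower in the Hypo. The median log2 difference was 7.36 over the 8 genes against 0.02 over all genes tested. All 8 genes passed the filter on low counts. Hcrt, Gal, and Nts had at most 13 reads in any PFC library, so they passed through the Hypo. For these genes the call, the separate ranges, and the part in the median follow partly from the filter. For each of the 8 genes the CPM ranges of the tissues did not overlap, which held for 22.9% of all genes tested, with 15.7% higher and 7.18% lower in every Hypo library. A bulk level does not tell whether fewer cells or less RNA per cell gives a lower value.

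The lateral hypothalamic genes differed most. Hcrt had 2.80 to 140.6 CPM in the 18 Hypo libraries with a median of 13.4, and 0 to 0.0433 CPM in the 20 PFC libraries. In the PFC it was carried by 12 reads in 1116 M, or 0.0108 CPM (exact Poisson 95% interval 0.00556 to 0.0188, counting error only), and no PFC library held more than 2 reads. Of the PFC libraries, 10 had 0 reads, which allows up to 0.0434 to 0.0617 CPM in each. The fitted log2 difference of 10.87 (SE 0.57) rests on those few reads. Pmch had 211 to 1261 CPM in the Hypo with a median of 488, and 0.0649 to 0.519 CPM in the PFC, a log2 difference of 10.72 (SE 0.23). Hcrt was thus at the limit of detection in the PFC, while Pmch was counted in every PFC library, with 3 to 30 reads in each.

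Gal had 15.7 to 123 CPM in the Hypo with a median of 42.2, and at most 0.218 CPM in the PFC, a log2 difference of 8.83 (SE 0.29). Nts had 11.7 to 88.9 CPM in the Hypo with a median of 21.6, and at most 0.1498 CPM in the PFC, a log2 difference of 8.44 (SE 0.33). In the PFC, 8 of 20 libraries held at most 3 reads of Gal and 14 of 20 at most 3 reads of Nts.

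The arcuate genes differed less. Pomc had 24.7 to 154 CPM in the Hypo with a median of 44.3 and 0 to 0.75 CPM in the PFC, a log2 difference of 6.28 (SE 0.31). Cartpt had 19.9 to 149 CPM in the Hypo with a median of 55.3 and 0.302 to 3.07 CPM in the PFC, a log2 difference of 6.26 (SE 0.34). Agrp had 2.30 to 9.27 CPM in the Hypo with a median of 4.598 and 0.121 to 0.627 CPM in the PFC, a log2 difference of 3.40 (SE 0.26). All 3 were counted in the PFC, apart from 1 library with 0 reads of Pomc. Markers of the pituitary (9 genes) summed to 19.96 to 5112 CPM in the Hypo and to at most 1.98 CPM in the PFC, and the difference of Pomc was 6.32 without WT female 471 and WT male 251, the libraries with the most growth hormone (Gh) RNA. By the median, Agrp was the least abundant of the 8 in the Hypo but not in the PFC. In single Hypo libraries Hcrt was lower, as in Ube3a2X male 238 (2.80 against 3.21 CPM). The annotation of Agrp (GENCODE vM21, GRCm38, chr8:105566698-105637393) includes a long transcript that shares 114 exon bases with Ctcf on the other strand and with Gm5914, and whether such reads add to its level was not tested. Pmch shares 435 exon bases with Parpbp on the other strand, and Parpbp had 2.07 to 31.0 CPM in the Hypo. Whether reads of Parpbp add to the low counts of Pmch in the PFC was not tested.

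Npy, which Agrp neurons of the hypothalamus and cortical interneurons both make, went the other way. It had 7.69 to 28.8 CPM in the Hypo with a median of 15.3, and 30.2 to 67.9 CPM in the PFC with a median of 51.5. Every PFC library was above every Hypo library, and the log2 difference of the Hypo from the PFC was -1.88 (SE 0.23). Within the 13 mice that gave both tissues, Npy was higher in the Hypo of 0 mice, and each of the other 7 genes was higher in the Hypo of all 13.

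**Figure D1:**
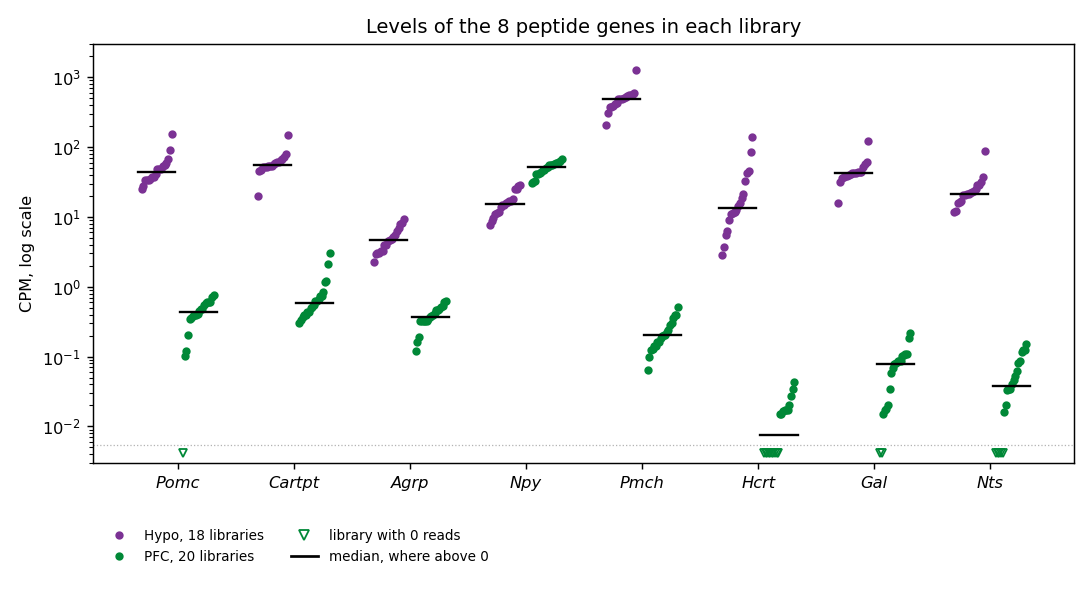
CPM on a log scale of each of the 8 genes in each library, 18 from the Hypo (left of each name) and 20 from the PFC (right), sorted within a tissue. Bars are medians where these are above 0, and open triangles under the dotted line are libraries with 0 reads. For 7 genes every Hypo library lies above every PFC library, and for Npy every PFC library lies above every Hypo library, a separation seen in 22.9% of all genes tested.

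Per kb of exon, the order of the medians in the Hypo was Pmch (652 CPM per kb), Gal (53.6), Cartpt (43.3), Pomc (33.6), Npy (27.01), Hcrt (17.8), Nts (17.3), and Agrp (4.54). Pmch was above Gal in 18 of 18 libraries, with no overlap of their ranges, and Nts was above Agrp in 18 of 18. The neighbours between them overlapped. Gal was above Cartpt in 16 libraries, Cartpt above Pomc in 15, Pomc above Npy in 16, Npy above Hcrt in 10, and Hcrt above Nts in 9. In the PFC, Npy had a median of 91.0 CPM per kb, and the next gene, Cartpt, had 0.458.

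Receptors, processing enzymes, and regulators of these peptides were compared as a list of 29 genes. In the Hypo 20 of the 29 were higher, 5 were lower, and 4 were not called, with a median log2 difference of 1.55 against 0.02 over all genes, where 32.4% of all genes were higher and 31.0% lower. Of 15 receptor genes, 11 were higher. They were Galr1, a galanin receptor (7.29, SE 0.26, with 0 reads in 3 of 20 PFC libraries), Mc3r, a melanocortin receptor (4.41, SE 0.21), Mrap2, an accessory protein of melanocortin receptors (3.88, SE 0.10), Npy2r, a receptor of neuropeptide Y (3.77, SE 0.14), Galr3 (2.86, SE 0.28), the neurotensin receptors Ntsr1 (2.15, SE 0.20) and Ntsr2 (1.55, SE 0.13), the orexin receptors Hcrtr2 (1.86, SE 0.16) and Hcrtr1 (0.72, SE 0.25), Galr2 (1.58, SE 0.51), and Mc4r (0.78, SE 0.19). The receptor genes called lower were Sort1 (-1.64, SE 0.11), which also binds neurotensin, Npy1r (-0.68, SE 0.13), and Mchr1 (-0.58, SE 0.12), the receptor of melanin-concentrating hormone. Ghsr, the ghrelin receptor, was also higher, with 3.53 to 16.6 CPM in the Hypo and at most 0.168 CPM in the PFC, and Lepr, the leptin receptor, was higher by 0.98 (SE 0.23) and Insr, the insulin receptor, by 0.21 (SE 0.09). All 5 transcription factor genes were higher. Isl1, which directs Pomc in arcuate neurons, had 22.3 to 33.8 CPM in the Hypo and 0 reads in 17 of 20 PFC libraries, and Bsx, which acts in Agrp neurons, had 10.8 to 17.3 CPM in the Hypo and 0 reads in 15 of 20. Both had at most 0.0468 CPM in any PFC library. They passed the filter through the Hypo, and their calls follow partly from it. Otp had a difference of 8.61 (SE 0.18), Nhlh2 of 5.17 (SE 0.20), and Lhx9 of 3.73 (SE 0.50). Among 6 processing genes, Pam, which amidates peptides, was higher (0.79, SE 0.08), while the convertase gene Pcsk2 (-1.34, SE 0.08) and its chaperone gene Scg5 (-0.31, SE 0.11) were lower.

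Defining markers were checked against the tissue labels. Cortical excitatory neuron markers (5 genes) summed to 7.62 to 19.0 CPM in the Hypo against 1766 to 2251 CPM in the PFC. Markers of the mammillary region (4 genes) summed to 11.6 to 64.9 CPM in the Hypo against at most 0.0684 CPM in the PFC, where 2 of the 4 were at 0 in every library. Not every hypothalamic list was higher in the Hypo. The suprachiasmatic list had a median of 114.4 CPM there and 132.3 CPM in the PFC, with Vip and Rorb called lower and Lhx1 and Six6 higher. Of the paraventricular and supraoptic list, 4 genes were called higher and Crh lower.

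The libraries were then compared among the mice. The spread of each gene was the SD of log2-CPM around the means of the 4 groups of sex and genotype. It was above the 90th percentile of the 11869 genes tested in the Hypo (0.39) for 8 of the 8 genes. The SD was 1.11 for Hcrt, 0.63 for Pomc, 0.55 for Cartpt, 0.52 for Nts, 0.52 for Agrp, 0.50 for Npy, 0.49 for Gal, and 0.42 for Pmch, against a median of 0.22 over all genes. Single libraries carried part of these values. Without WT female 471 the SD was 0.34 for Nts, 0.30 for Pmch, 0.38 for Gal, and 0.41 for Agrp, and it was 0.48 for Pomc without WT male 251, 0.86 for Hcrt without WT female 262, and 0.40 for Cartpt without Ube3a2X male 238. Sampling of reads gives an SD of at most 0.10 at the lowest count of any of the 8 genes. Hcrt was higher in spread than 99.9% of the genes. With RIN and 2 surrogate variables removed, the SD of Gal fell to 0.21 and that of Hcrt to 0.76, and the number above the 90th percentile was 7 of 8.

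**Figure D2:**
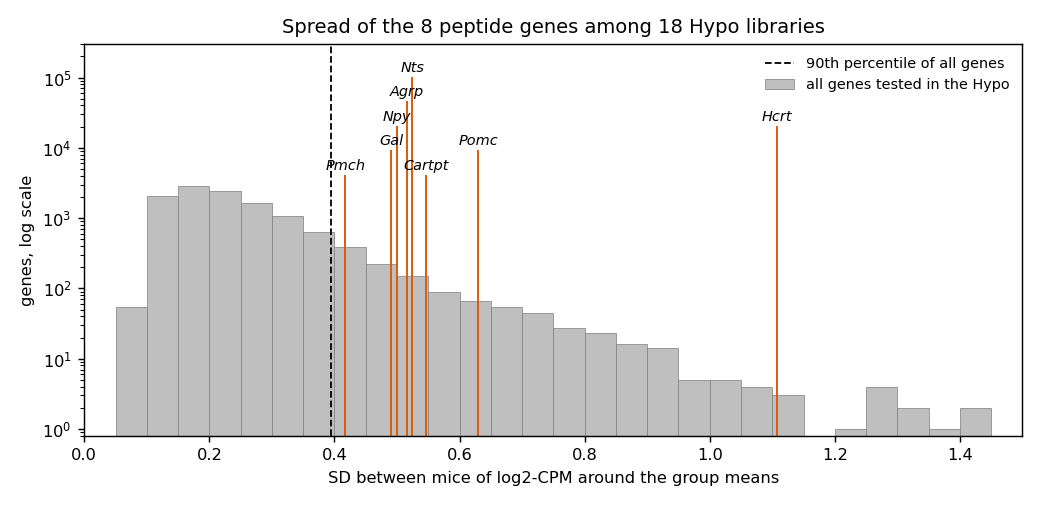
Number of genes (log scale) by SD between mice of log2-CPM around the group means, for the 11869 genes tested in the Hypo (grey bars), with a line for each of the 8 genes and a dashed line at the 90th percentile. All 8 lines lie to the right of the dashed line, and Hcrt lies at 1.11, and 3 genes with an SD over 1.5 fall outside the axis.

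Single libraries stood apart in several genes at once. WT female 471 was above its group mean in 8 of 8 genes, by 1.11 on the log2 scale on average, with 1261 CPM of Pmch and 141 CPM of Hcrt. Its pituitary markers summed to 5112 CPM, the highest of the 18 libraries, where the median was 109. The same library had 37.5% coding bases, against 46.2 to 51.1% in the other 17 Hypo libraries, 53.7% UTR bases against 35.9 to 44.0%, a median CV of coverage of 0.649 against at most 0.533, and the fewest counted reads, 39.0 M. WT male 251 had the highest Pomc, at 154 CPM, and 412 CPM of Gh, against a median of 20.6 CPM. The summed pituitary markers reached 1018 CPM among Ube3a2X females, against at most 629.5 CPM in WT males. Pomc was at most 49.4 CPM in Ube3a2X females. Ube3a2X male 238 was below its group mean in 7 of 8 genes, by 0.78 on average, with 19.9 CPM of Cartpt and 15.7 CPM of Gal. Its share of intronic bases was 9.52%, and its Gh was 0. WT female 262 was below its group mean in all 8 genes, by 0.71 on average and by 2.37 for Hcrt, and WT female 410 by 0.23 on average, but the mean of these 4 libraries includes WT female 471. The part of pituitary tissue, depth, and RNA quality in these values was not tested.

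**Figure D3:**
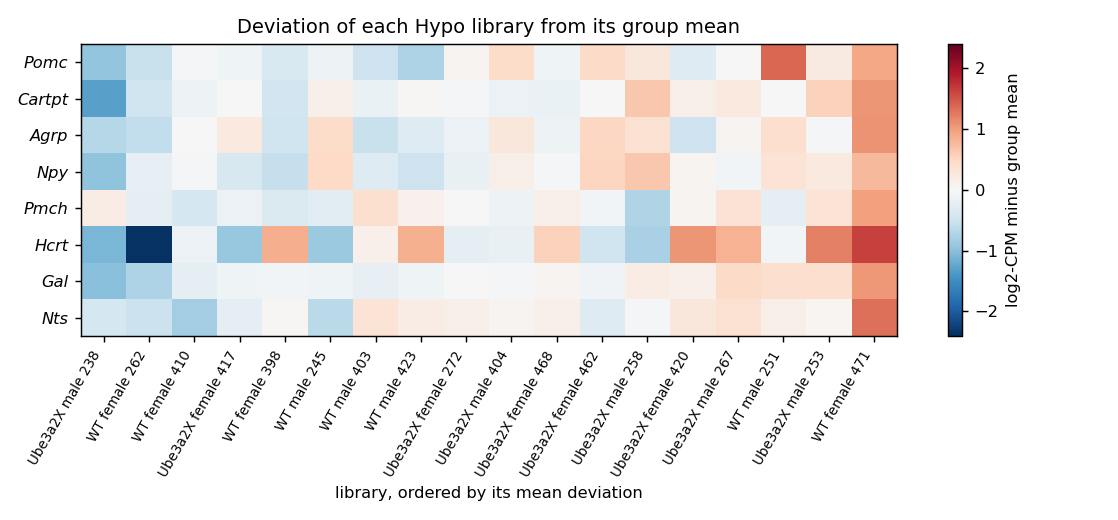
Log2-CPM of each of the 8 genes (rows) minus its group mean in each of the 18 Hypo libraries (columns, ordered by their mean deviation over the genes), red above and blue below. WT female 471, at the right, is red in all 8 rows, and Ube3a2X male 238, at the left, is blue in 7.

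Genes that share neurons were compared across the 18 mice. Of the 28 pairs of the 8 genes, 14 by Pearson's r and 11 by Spearman's rho had a permutation p adjusted over the pairs under 0.05, with labels permuted within groups. Genes were correlated widely across these libraries. The lowest r called was 0.605, and 21% of all 70430646 pairs of the genes tested had an r at or above it. Negative r of that size are not in this share, although the test counted both signs, so the share is a low background. The median size of r was 0.58 over the 28 pairs against 0.53 over all pairs. Agrp and Npy, made by the same arcuate neurons, had Pearson's r = 0.82 (permutation p = 0.00094, adjusted p = 0.0111) and Spearman's rho = 0.80 (permutation p = 0.00146, adjusted p = 0.0136). Without the 2 libraries farthest from the median, r was 0.72. Pomc and Agrp, of the opposed arcuate types, had r = 0.82 (permutation p = 0.00016, adjusted p = 0.00448) and rho = 0.83 (permutation p = 0.00023, adjusted p = 0.00644), and r was 0.82 without the 2 farthest libraries. Pomc and Cartpt, often in the same neurons, had r = 0.61 (permutation p = 0.0217, adjusted p = 0.04998) and rho = 0.52 (permutation p = 0.0455, adjusted p = 0.0980). Hcrt and Pmch, of neighbouring but separate neurons, had r = 0.56 (permutation p = 0.0964, adjusted p = 0.169) and rho = 0.47 (permutation p = 0.0887, adjusted p = 0.166). Pmch with Pomc, Agrp, and Npy had r of 0.06, 0.12, and 0.02.

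The count of 14 pairs by Pearson's r rests on few libraries. It was 2 without Ube3a2X male 238, 5 without WT female 471, and 3 without WT female 471 and WT male 251 together, where Pomc with Agrp (r = 0.85), Pomc with Npy (0.83), and Hcrt with Gal (0.69) were the pairs called. Of 96 relations of the 8 genes with lists of markers of regions, 3 passed by Pearson's r and 6 by Spearman's rho, and the 3 became 12 with RIN removed. The smallest size of r called was 0.73, which 9.38% of the 96 relations reached and 7.26% of those of all genes tested with the same lists, so the share of the 8 genes is near the background. The sums used all genes of a list, but few passed the filter in the Hypo for some lists. These were 2 of the 3 tanycyte genes and 1 of the 4 choroid plexus genes. Hcrt was lower where the tanycyte list was higher (r = -0.82, permutation p = 6e-05, adjusted p = 0.00576; rho = -0.79, permutation p = 0.00015, adjusted p = 0.0144), with r = -0.79 without the 2 farthest libraries. This call held in each fit that left out 1 library. Nts had r = -0.73 with the choroid plexus list (permutation p = 0.00029, adjusted p = 0.0139) and rho = -0.78 (permutation p = 0.00101, adjusted p = 0.0223), and r was -0.79 without the 2 farthest libraries. It missed the threshold without Ube3a2X male 267. Without WT female 471 and WT male 251, the relation of Hcrt with tanycytes was the 1 of the 3 still called. Npy had r = 0.78 with the arcuate list (permutation p = 0.00134, adjusted p = 0.0429) and rho = 0.83 (permutation p = 0.00057, adjusted p = 0.0223), with r = 0.67 without the 2 farthest libraries, and with 1 library left out at a time it missed the threshold in 12 of 18 fits. By rho alone, Agrp passed with the arcuate list (rho = 0.77, permutation p = 0.00197, adjusted p = 0.0315; r = 0.79, adjusted p = 0.0714), Hcrt with the choroid plexus list (rho = -0.77, permutation p = 0.00116, adjusted p = 0.0223; r = -0.59, adjusted p = 0.0714), and Nts with the tanycyte list (rho = -0.76, permutation p = 0.00071, adjusted p = 0.0223; r = -0.65, adjusted p = 0.0714). Pomc with the pituitary list had r = 0.70 (permutation p = 0.00764, adjusted p = 0.0714) and rho = 0.57 (permutation p = 0.028, adjusted p = 0.128), and r fell to 0.46 without WT male 251 and WT female 471. With RIN, the intronic share, the transcript end bias, and the counted reads, 0 of 32 relations passed, and the strongest was Gal with the share of intronic bases (r = -0.65, permutation p = 0.00324, adjusted p = 0.0758, and rho = -0.55, permutation p = 0.0239, adjusted p = 0.234), with r = -0.51 without the 2 farthest libraries.

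Over the 18 Hypo libraries and 11869 genes, the genes most like each peptide gene in their deviations were named by Pearson's r, as a description without a test. For Npy they were Rxrg (0.93), Nptx2 (0.92), and Siah1b (0.88). For Agrp they were Magef1 (0.90), Pecr (0.88), and Echdc2 (0.88), and for Pomc they were Sft2d3 (0.89), Siah1b (0.88), and Sox1 (0.87). For Cartpt they were Rps2 (0.98), Tmbim4 (0.97), and Rpl10a (0.97), and for Gal they were Rps13 (0.98), Nme2 (0.98), and Tsfm (0.98). For Hcrt they were Cplx1 (0.95), Asic4 (0.93), and Cygb (0.90), for Pmch Sco1 (0.91), Spats2l (0.90), and Psmc6 (0.90), and for Nts Rgs10 (0.92), Ptcd2 (0.92), and Ggact (0.91). Rps2, Rpl10a, and Rps13 encode ribosomal proteins.

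Genotype was compared in the Hypo with the terms of the study's model, the 4 groups, the RNA integrity number (RIN), and 2 surrogate variables. The test was edgeR's quasi-likelihood test, while the study used limma-voom, which was run here as an alternative. No peptide gene was called, 0 of 8, against 0.00843% of all 11869 genes, a single gene, Ube3a. All 8 log2 differences of Ube3a2X from WT were below 0, with a median of -0.20 against -0.01 over all genes, and 2 had an unadjusted p under 0.05, against 5.24% of all genes. The shared sign rests on single libraries. With 1 library left out, the highest values were 0.053 for Pomc, 0.052 for Cartpt, 0.0048 for Pmch, and 0.11 for Nts. The alternative tests, DESeq2 and limma-voom, also called 0 of the 8. Marker lists of other hypothalamic regions had medians of the same sign, with -0.29 for the paraventricular and supraoptic nuclei, -0.20 for the suprachiasmatic nucleus, -0.17 for the ventromedial list, and -0.21 for the list named for cortical interneurons, where 3 of 5 genes had an unadjusted p under 0.05. The mammillary list had a median of 0.58 (1.04 in males), and 0 genes of these lists were called.

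Gal had the smallest p. Its WT female libraries had 36.3, 57.9, 52.3, and 123 CPM and its WT male libraries 42.2, 60.3, 38.8, and 42.5 CPM. Its Ube3a2X female libraries had 41.1, 39.1, 44.1, 39.2, and 43.8 CPM and its Ube3a2X male libraries 15.7, 42.3, 37.5, 44.3, and 31.6 CPM. The WT range reaches higher, with 4 WT libraries above every Ube3a2X library, but the groups overlap. The log2 difference was -0.26 (SE 0.10, edgeR adjusted p = 0.910), and it was -0.15 without WT female 471 and WT male 251, which hold the highest values.

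Npy had 11.7 to 28.8 CPM in 8 WT mice with a median of 16.2, and 7.69 to 24.8 CPM in 10 Ube3a2X mice with a median of 13.1, a log2 difference of -0.41 (SE 0.18, edgeR adjusted p = 0.930), which was -0.27 without WT female 262. Hcrt had 6.28 to 141 CPM in WT mice with a median of 16.8, and 2.80 to 45.0 CPM in Ube3a2X mice with a median of 13.02, a log2 difference of -0.45 (SE 0.38). With 2 SE either side, the difference of Hcrt runs from -1.21 to 0.32, so a change of up to that size could not be told from none. It ran from -0.63 without WT female 262 to -0.071 without WT female 398. Pomc had 33.3 to 154 CPM in WT and 24.7 to 66.5 CPM in Ube3a2X mice, a log2 difference of -0.33 (SE 0.29). That of Pomc turned to 0.06 and that of Nts to 0.04 without WT female 471 and WT male 251. The pituitary markers summed to 21.1 to 5112 CPM in WT mice (median 103) and to 19.96 to 1018 CPM in Ube3a2X mice (median 109). The groups overlapped for all 8 genes.

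The other 4 genes had differences nearer to 0. Agrp had -0.13 (SE 0.19), Cartpt -0.09 (SE 0.13), Pmch -0.08 (SE 0.14), and Nts -0.06 (SE 0.15). That of Agrp was -0.010 without WT male 245 and -0.27 without WT male 403. With 2 SE either side, Pmch runs from -0.37 to 0.21 and Cartpt from -0.35 to 0.17, so these are the narrowest intervals among the 4.

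The size of these differences depends on the surrogate variables. With RIN alone in the model the log2 difference of Ube3a2X from WT was -0.99 for Hcrt, -0.61 for Pomc, -0.60 for Gal, -0.59 for Npy, -0.51 for Nts, -0.44 for Agrp, -0.41 for Pmch, and -0.40 for Cartpt. All 8 were farther from 0 than with the surrogate variables, and none was called (edgeR adjusted p = 0.564 for each).

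Within each sex, 0 of 8 genes were called. In females 0.00843% of all genes were called, and the differences of the 8 genes ran from -0.45 (Hcrt) to 0.00 (Pmch). These depend on the model. Over the alternative fits, the lowest values in females were -1.52 for Hcrt, -0.70 for Gal, -0.70 for Nts, and -0.60 for Cartpt. Over the same fits, Pomc ran from -0.73 to 0.28 in males. In males Ube3a itself was higher by 1.79 (SE 0.25) and missed the threshold (edgeR adjusted p = 0.0718), while in females it was higher by 2.15 (SE 0.24, edgeR adjusted p = 0.00694). In males 0% of all genes were called by edgeR, 1092 had an unadjusted p under 0.05, and DESeq2 called 17 and limma-voom 1. The differences in males ran from -0.57 (Pomc) to -0.05 (Nts). These rest on single libraries, since with 1 left out Pomc ran from -0.88 to 0.20 in males (0.20 without WT male 251), Hcrt from -0.69 to 0.11, and Nts from -0.30 to 0.11, and in females Hcrt ran from -0.94 to 0.18 and Nts from -0.26 to 0.23. The sex*genotype interaction called 0 of 8 and 0% of all genes, with 819 genes at an unadjusted p under 0.05, and DESeq2 and limma-voom called 0. Of the 25 of 29 receptor, processing, and regulator genes that passed the filter in the Hypo, 0 were called for genotype. Those with the smallest p were Nhlh2, a transcription factor gene (0.22, SE 0.09), and Bsx (-0.18, SE 0.07), both with an edgeR adjusted p = 0.910.

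In the PFC only Npy of the 8 genes passed the filter of 100 reads, taken from the methods of the study. Among WT mice its level ran from 32.3 to 67.9 CPM (10 mice, median 46.9), and among Ube3a2X mice from 30.2 to 63.3 CPM (10 mice, median 55.4), and the ranges overlapped. Its log2 difference was 0.17 (SE 0.08, edgeR adjusted p = 0.611), or 0.029 with RIN alone in the model, and it was not called, while 0.0183% of all 10900 genes were, Ube3a among them. Of the 29 genes, 11 passed the filter and 0 were called.

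**Figure D4:**
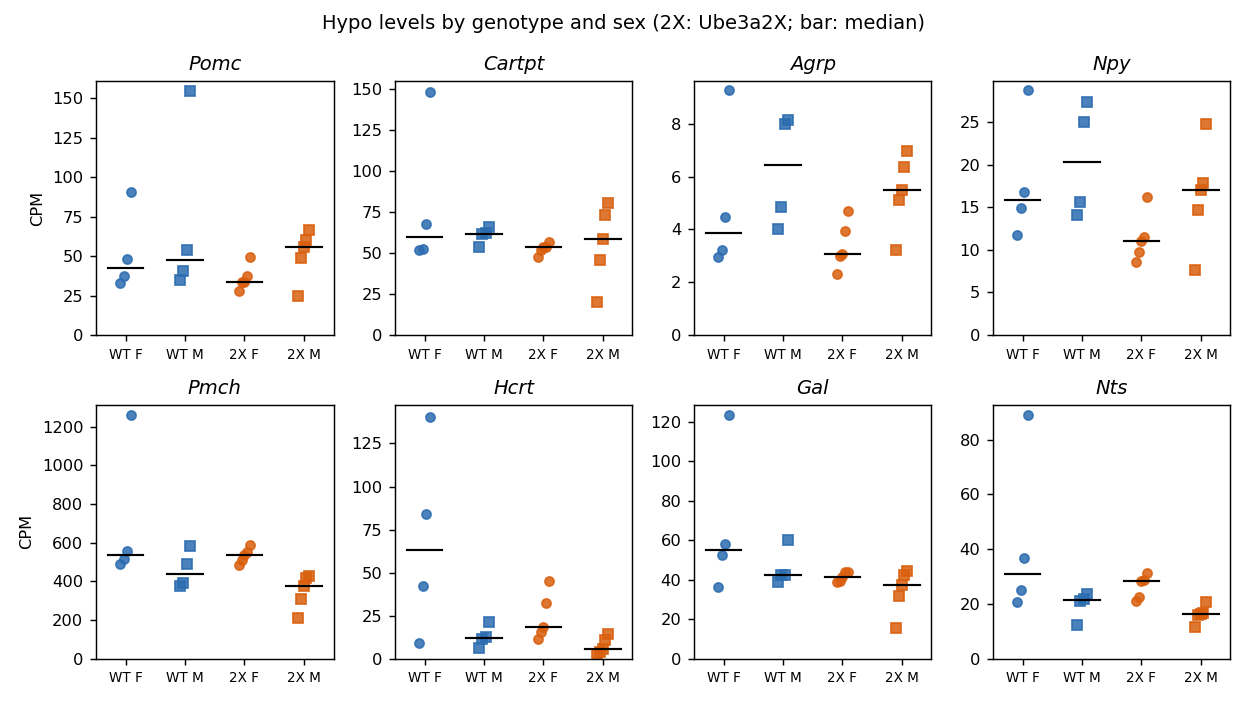
CPM of each of the 8 genes in the 18 Hypo libraries by genotype and sex (WT F and WT M, 4 libraries each, blue; Ube3a2X F and M, 5 each, orange), circles for females and squares for males, bars for medians. The groups overlap in every panel between the genotypes, and WT female 471 is the highest WT female in all 8.

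The sexes were compared in the same fit. Agrp was higher in males by 0.83 on the log2 scale (SE 0.19, edgeR adjusted p = 0.0338), and it was the one gene of the 8 that was called, against 2.30% of all genes, with 1.15% higher and 1.15% lower in males. Of the 8, 6 had an unadjusted p under 0.05, against 17.8% of all genes. The 273 genes called among all tested became 7 with RIN alone in the model. Agrp libraries had 2.97, 3.22, 4.48, and 9.27 CPM in WT females, 3.001, 3.94, 2.30, 4.71, and 3.06 CPM in Ube3a2X females, 8.15, 7.99, 4.02, and 4.87 CPM in WT males, and 3.21, 5.13, 6.97, 5.49, and 6.37 CPM in Ube3a2X males. The medians were 3.22 CPM in 9 females and 5.49 CPM in 9 males, and the ranges overlapped.

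The call of Agrp was not stable. It held with DESeq2 and limma-voom, and it was lost with RIN alone in the model (0.56, adjusted p = 0.470), with 2 quality components instead of surrogate variables (0.82, adjusted p = 0.0909), with the standard filter of edgeR (0.79, adjusted p = 0.0562), and without WT female 471 and WT male 251 (0.75, adjusted p = 0.109). It was also lost when any of WT males 245 and 251, Ube3a2X male 258, WT females 262, 398, and 471, and Ube3a2X females 272 and 468 was left out, with adjusted p from 0.0567 to 0.127. The difference was 0.75 to 0.96 with 1 library left out, against 0.83 with all 18.

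The other 7 genes were not called. Npy was higher in males by 0.63 (SE 0.18, adjusted p = 0.0835) and Pomc by 0.81 (SE 0.28, adjusted p = 0.158), and the difference of Pomc was 0.43 without WT male 251. Hcrt was lower in males by 1.48 on the log2 scale (log2 difference -1.48, SE 0.41, adjusted p = 0.0846), Nts by 0.57 (-0.57, SE 0.15, adjusted p = 0.0642), and Pmch by 0.46 (-0.46, SE 0.14, adjusted p = 0.115). Hcrt had 8.91 to 141 CPM in females with a median of 32.4, and 2.80 to 21.1 CPM in males with a median of 11.1. Of 9 females, 5 were above every male for Hcrt and 6 for Nts. Cartpt had 0.17 (SE 0.12) and Gal -0.06 (SE 0.09), and with 2 SE either side Gal runs from -0.25 to 0.12. With RIN alone in the model Gal had -0.39, Cartpt -0.15, Hcrt -2.30 (adjusted p = 0.0796), and Nts -0.90 (adjusted p = 0.222). DESeq2 called Agrp, Hcrt, Npy, and Nts, and limma-voom called Agrp and Hcrt.

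Marker lists are given for the sexes beside these values. The tanycyte list (3 genes) summed to 26.97 to 41.7 CPM in females and 37.5 to 64.9 CPM in males, the ventromedial list (2 genes) to 28.2 to 38.2 and 36.1 to 64.9 CPM, and the pituitary list (9 genes) to 28.6 to 5112 CPM in females (median 161) and 19.96 to 629.5 CPM in males (median 53.4). The mammillary list (4 genes) summed to 45.3 to 60.05 CPM in females (median 51.8) and 11.6 to 64.9 CPM in males (median 47.04). The median difference of males from females over its 3 tested genes was -0.53, and 0 were called. The ranges overlapped for each of these lists. Fndc3c1, a tanycyte marker, was higher in males by 0.68 (SE 0.12, adjusted p = 0.00779), and Nr5a1, a ventromedial marker, by 0.67 (SE 0.14, adjusted p = 0.0254). Of the 3 tested genes of the arcuate list, Tac2 was lower in males (log2 difference -0.67, SE 0.09, adjusted p = 0.00153), while Tbx3 had 0.33 (SE 0.09, adjusted p = 0.0721) and Ghrh 0.34 (SE 0.14, adjusted p = 0.217). Of the 3 tested pituitary genes, Tbx19 was higher in males by 0.54 (SE 0.12, adjusted p = 0.0228), while the summed list had the lower median in males, and the median of the 3 was -0.08. The part of the dissection in these differences was not tested. Of the 25 tested genes of the list of 29, Mc3r was higher in males by 0.59 (SE 0.10, adjusted p = 0.00670) and Nhlh2 was lower (-0.38, SE 0.08, adjusted p = 0.0258).

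**Figure D5:**
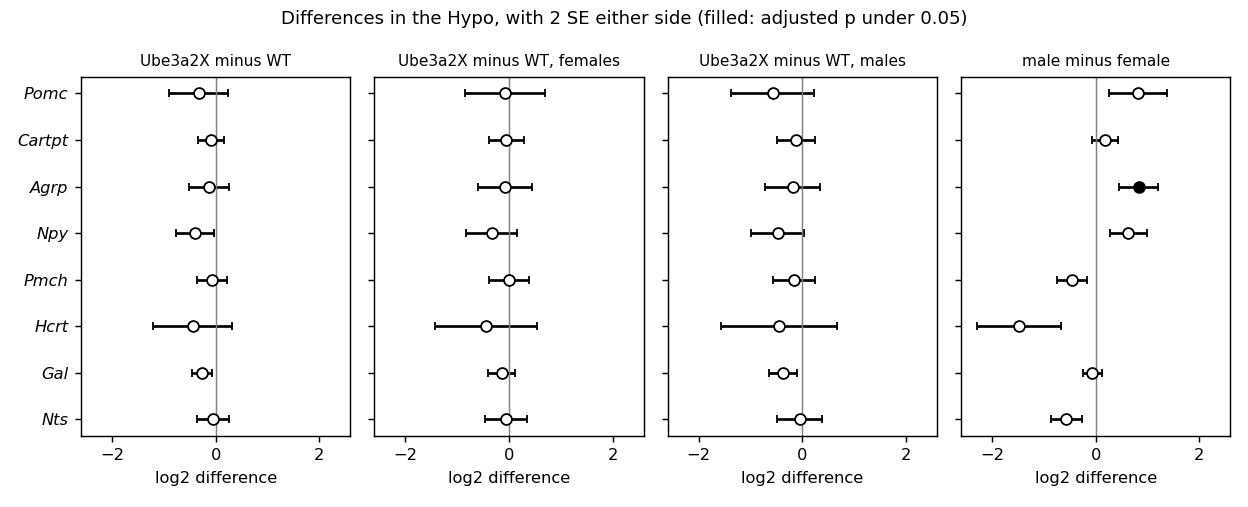
Log2 differences of the 8 genes in the Hypo with 2 SE either side, for Ube3a2X minus WT, for the same in females and in males, and for male minus female. A filled point has an adjusted p under 0.05. For genotype no point is filled, and for sex only Agrp is.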

How the data were processed

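Per the labels and the methods of the study, libraries were stranded, paired-end, and made from mRNA. The authors used STAR on GRCm38 for alignment and featureCounts for counting. The deposited counts are reads per gene, without normalization or filter. Their strand setting is not given in the sources used here. A deposited table of quality measures gives RIN as a score, the shares of bases as a fraction, the transcript end bias as a ratio, and a count of aligned reads. The shares were converted to percent. Exon lengths and overlaps were taken from GENCODE vM21, which is not the release that the study names for its counts. Of the 54165 genes, 53905 were in GENCODE vM21.

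From the counts, fits were made in R 4.3.3 with edgeR 4.0.16 (TMM, quasi-likelihood test), limma 3.58.1, sva 3.50.0, and DESeq2 1.42.0. The study tested with limma-voom, and edgeR replaced it here as the test for raw counts. Within a tissue, a gene was kept if at most 1 library held under 100 reads, the 15% of least variance were dropped, as in the methods of the study, although the numbers of genes kept (11869 in the Hypo, 10900 in the PFC) are not those it states, and the terms were the 4 groups, RIN, and 2 surrogate variables. The tissues were compared over genes passing the filter of edgeR, with RIN. Adjusted p-values are those of Benjamini and Hochberg. CPM used all counted reads, and log2-CPM used TMM and a prior count of 2. The correlations used 100000 permutations within groups, in Python 3.11.15, and Poisson intervals were exact. The counts of replicates differed by 11.1 to 500 times the sampling noise over 72 pairs, so none were taken as 1 library deposited under 2 labels.

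The same 13 animals gave both tissues, so the mouse numbers pair these samples. The same-mouse deviations correlated at -0.57 to 0.43 over 9378 genes (median -0.06). The 8 genes and the lists were chosen with earlier results of these data known. The genes named are the 8, the 3 genes most like each, the called genes of the list of 29 (or the 2 with the smallest p where none was called), and Ube3a. Marker genes outside this rule were named after their values were seen. The scripts were tested on simulated data. The replicates were separate animals.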

Additional observations from a re-analysis of the deposited data

Results flagged for a closer look

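Dixon's test was applied to the CPM of the 8 genes in each of the 8 groups of 4 or 5 libraries. Of 64 groups, 7 held a library far from the others, and chance flags about 1 in 20 groups. In the Hypo, WT female 471 stood apart for Pmch (1260 CPM) and Cartpt (149 CPM), and WT male 251 for Pomc (154 CPM). In the PFC, WT female 259 stood apart for Cartpt (3.07 CPM) and Ube3a2X male 258 for Npy, where it was low (30.2 CPM). WT male 251 stood apart for Nts in the PFC (0.15 CPM, 10 reads), as did Ube3a2X female 272 (0.126 CPM, 7 reads). The values of Nts rest on few reads, and no cause was tested for any of these libraries.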

How the results depend on the processing

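The tissue differences kept their direction and their calls under every alternative that was run, in 360 of 360 values, and with the replicate block of 13 paired mice as a fixed term (16292 genes called, 8 of 8 peptide genes) or the mouse as a random block (14085 genes, 8 of 8). For genotype and sex within a tissue, no paired analysis was possible because the groups compared share no mouse numbers. For genotype in the Hypo, the genes called were 5 with DESeq2, 2 with the filter of edgeR, 2 with RIN and 2 quality components, and 0 without WT female 471 and WT male 251, a choice made after seeing the data. In females they were 3 with DESeq2, 3 with the filter of edgeR, and 0 without those 2 libraries, and in males 1 with limma-voom and 17 with DESeq2. In the PFC they were 32 with DESeq2 and 1 with the filter of edgeR. No peptide gene was called for genotype in any of these fits. Leaving out 1 library gave 1 to 12 genes for genotype in the Hypo (12 without WT male 403), 0 to 2 in females (0 without WT female 262, 398, 410, or 471), 0 to 49 in males (49 without WT male 403), and 1 to 15 in the PFC (15 without Ube3a2X male 258). With RIN only the 8 differences ran from -0.99 to -0.40. Without those 2 libraries the difference of Pomc was 0.064 and that of Nts 0.044. Leaving out 1 library, the genotype difference ran from -0.49 to 0.053 for Pomc (0.053 without WT male 251), from -0.16 to 0.052 for Cartpt, from -0.15 to 0.0048 for Pmch, from -0.63 to -0.071 for Hcrt, from -0.27 to -0.010 for Agrp, from -0.51 to -0.27 for Npy, and from -0.18 to 0.11 for Nts.

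For sex, the genes called were 662 with DESeq2, 7 with RIN only, and 70 with RIN and 2 quality components, and 83 to 663 when 1 library was left out (83 to 150 without WT male 245 or 251, Ube3a2X male 258, WT female 262, 398, or 410, or Ube3a2X female 272 or 468, 522 without Ube3a2X male 238, 663 without WT male 403). The peptide genes called were 2 with limma-voom, 4 with DESeq2, and 0 with the filter of edgeR, with RIN only, with RIN and 2 quality components, and without WT female 471 and WT male 251, and 0 to 4 when 1 library was left out (4 without WT male 403, 2 without Ube3a2X male 238, WT female 410, or Ube3a2X female 462). Cartpt turned to -0.15 and Gal was -0.39 with RIN only, and Gal ran from -0.13 to 0.0097 when 1 library was left out. The pairs called by Pearson's r were 3 and the relations with region lists 1 without WT female 471 and WT male 251, and the latter 12 with RIN removed. When 1 library was left out, the pairs were 2 to 13 and the relations 1 to 5 (1 without Ube3a2X male 267, 5 without WT male 403). The pairs were 5 to 9 without WT female 471, 410, or 398, WT male 251, 403, or 423, Ube3a2X male 253, 267, or 404, or Ube3a2X female 468. The peptide genes above the 90th percentile of spread were 7 or 8. The causes were not tested. Depth limits Hcrt and Nts in the PFC, where 20 and 14 of 20 libraries held at most 3 reads.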
